A study of Rattus norvegicus with 20 samples.

Results

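Mast cell transcripts were followed in the gastrocnemius, a calf muscle, of tumour-bearing rats through 8 genes chosen by symbol from the raw count table: Cpa3, Cma1, Tpsb2, Tpsab1, Kit, Ms4a2, Fcer1a and Hdc. All 8 were present among 32495 rows that carry a gene symbol, and 5 of them (Cpa3, Cma1, Tpsb2, Tpsab1 and Kit) passed the low-count filter that left 11716 genes to test. All animals were female Fischer 344 rats carrying the Ward colon tumour, which had grown for 2 weeks by the first day of chemotherapy. TUMOUR STD rats (n = 5) ate the standard diet and received no chemotherapy. CHEMO STD rats (7 libraries, counted as 6 samples) ate the same diet and received 2 cycles of irinotecan and 5-fluorouracil, a topoisomerase inhibitor and a fluoropyrimidine. CHEMO FO rats (n = 8) received the same 2 cycles and were switched to a diet with fish oil, a source of eicosapentaenoic and docosahexaenoic acid, when chemotherapy began. In the chemotherapy groups muscle was taken 7 days after the second cycle, and the day for TUMOUR STD is not stated separately. No group was free of tumour, and no group received fish oil without chemotherapy.

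Mast cells are long-lived tissue immune cells that sit beside vessels, nerves and connective tissue, in muscle as elsewhere. They store proteases bound to heparin, together with histamine, in granules, and release them when IgE held on the high-affinity receptor FcεRI is cross-linked by antigen. Their growth and survival depend on KIT, the receptor for stem cell factor. Cpa3 encodes carboxypeptidase A3 and Cma1 chymase, both of connective tissue mast cells. Tpsb2 and Tpsab1 encode the tryptases. Ms4a2 and Fcer1a encode the β and α chains of FcεRI, and Hdc encodes histidine decarboxylase, which makes histamine. Kit is also used by other cells, among them melanocytes, pacemaker cells of the gut and blood progenitors.

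The 4 protease genes carry most of the group differences described here, so the 250 bases before their transcription start sites are shown, from RefSeq on the GRCr8 assembly, 5′ to 3′ in the direction of transcription. Capitals mark a GATA motif, the kind of site bound by GATA factors such as GATA2, a transcription factor of mast cells. The search used AGATAA, with T also allowed at its first base and G at its last, on both strands.
Cpa3 promoter, chr2:104673238-104673487, minus strand: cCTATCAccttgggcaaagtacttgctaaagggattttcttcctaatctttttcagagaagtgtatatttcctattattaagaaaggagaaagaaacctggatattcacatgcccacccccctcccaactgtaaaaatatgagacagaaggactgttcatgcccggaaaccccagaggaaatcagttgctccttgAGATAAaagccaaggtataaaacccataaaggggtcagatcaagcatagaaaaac
Cma1 promoter, chr15:33390134-33390383, minus strand: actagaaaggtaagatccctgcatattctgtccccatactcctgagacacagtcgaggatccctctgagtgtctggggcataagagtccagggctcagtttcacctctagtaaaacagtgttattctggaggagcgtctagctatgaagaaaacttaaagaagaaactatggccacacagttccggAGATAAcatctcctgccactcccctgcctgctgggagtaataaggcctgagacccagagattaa
Tpsb2 promoter, chr10:14886060-14886309, plus strand: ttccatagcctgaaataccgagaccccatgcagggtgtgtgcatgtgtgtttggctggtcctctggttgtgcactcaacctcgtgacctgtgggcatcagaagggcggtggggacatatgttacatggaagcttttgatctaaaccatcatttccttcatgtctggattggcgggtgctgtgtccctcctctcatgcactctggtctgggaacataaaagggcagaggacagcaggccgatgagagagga
Tpsab1 promoter, chr10:14867303-14867552, minus strand: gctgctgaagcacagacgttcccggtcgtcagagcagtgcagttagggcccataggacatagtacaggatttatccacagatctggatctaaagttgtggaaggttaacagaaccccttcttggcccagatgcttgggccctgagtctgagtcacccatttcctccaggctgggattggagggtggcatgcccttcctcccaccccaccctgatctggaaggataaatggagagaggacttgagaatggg
Cpa3 held 2 GATA matches, beginning 249 and 55 bases before the start site, and Cma1 held 1, beginning 64 bases before it. The tryptase windows held no match. Of the 8 genes 7 had a promoter entry, and 3 of those 7 held a match, Fcer1a being the third with 1 match 93 bases before its start, against 27.0% of 33469 rat promoters of the same length. An E-box (CANNTG) was found in 5 of the 7 and in 65.5% of all promoters. These matches are descriptions of letters and not of binding. Tpsb2 and Tpsab1 are neighbours on chromosome 10 with 0 genes between them and encode closely related enzymes. How the counting divided reads that match both is not given in the sources used here, and their separate values are uncertain to that extent. Cma1 belongs to a family of related mast cell protease genes, to which the same applies.

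Libraries held between 3020821 and 10857477 reads counted on named genes, and at this depth the members had few reads. CHEMO STD replicates 1 and 2 differed by 2.23 chi-square units per gene, against 13.7 to 254 in the 58 other pairs within groups, and were summed into 1 sample. Some libraries stood apart in genes of other tissues. The summed level of 13 keratinocyte and skin genes was 594 CPM (counts scaled to the TMM-adjusted library total) in TUMOUR STD replicate 10 and 122 CPM in CHEMO FO replicate 16, and no more than 8.05 CPM in any CHEMO STD sample. The summed level of 8 B cell genes was 114 CPM in CHEMO STD replicate 7. CHEMO FO replicate 18 differed by 138 to 254 chi-square units per gene from each other CHEMO FO library and held the most macrophage transcripts. CHEMO STD replicate 7, the sample summed from CHEMO STD replicates 1 and 2, and TUMOUR STD replicate 10 were high in genes of the nerve sheath. The 7 skeletal muscle genes found summed to between 120948 and 238491 CPM. Fold changes of the members that rest on these libraries are given with and without them. Correlations were not recomputed without these libraries as a set. Calls of single genes in the other lists were not refitted without them. In whole muscle, fewer mast cells and less RNA per cell cannot be told apart.

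**Figure D1:**
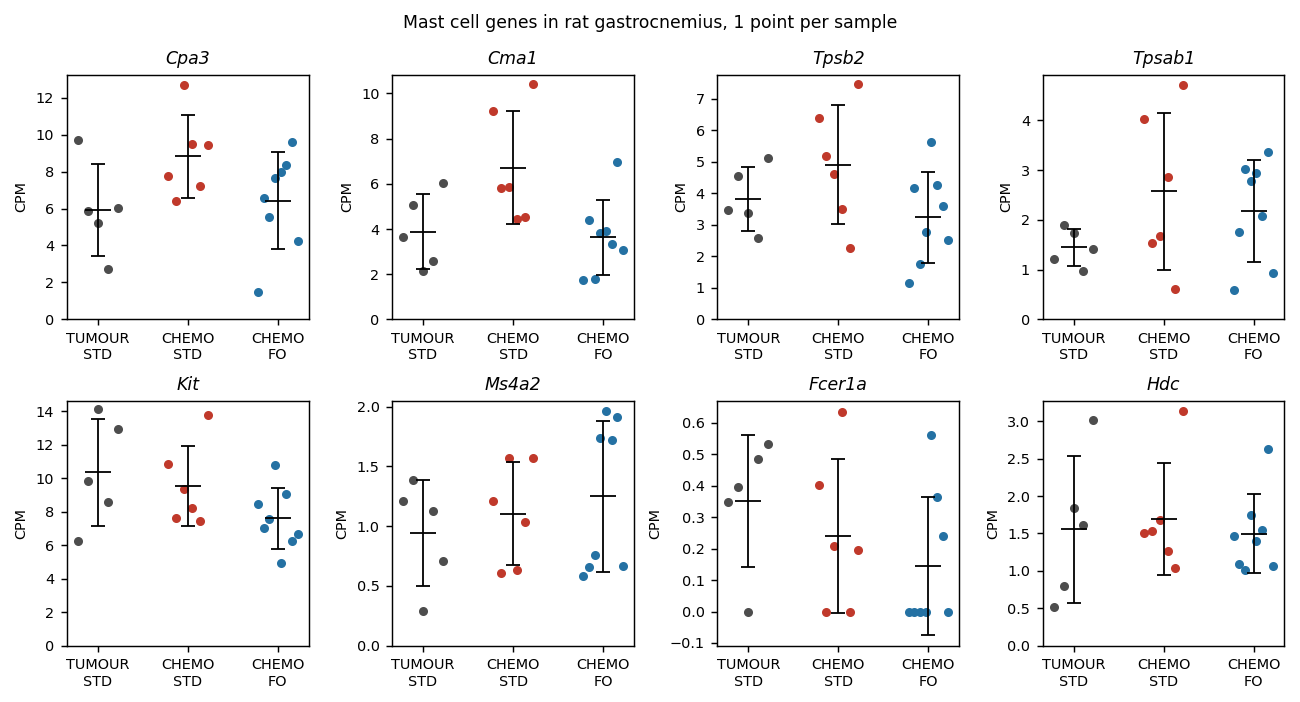
Levels of the 8 mast cell genes in CPM (counts scaled to the TMM-adjusted library total, vertical axes starting at 0, or just below it for Fcer1a where the bar extends below 0) in TUMOUR STD (n = 5), CHEMO STD (n = 6) and CHEMO FO (n = 8). Each point is 1 sample, and the bar and whiskers are the mean ± SD. Cma1 is highest on average in CHEMO STD at 6.71 CPM, and the groups overlap for every gene.

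Chymase was the one member that passed the study's unadjusted thresholds, and no member passed an adjustment over all genes. Cma1 was called up with chemotherapy on the standard diet and down with fish oil, and the CHEMO FO and TUMOUR STD levels did not differ detectably. Both calls were lost when the libraries high in nerve sheath genes were left out. In TUMOUR STD the 5 rats had 2.13, 2.58, 3.64, 5.06 and 6.02 CPM of Cma1. In CHEMO STD the lowest sample had 4.44, the median was 5.84 and the highest had 10.4 CPM. In CHEMO FO the lowest sample had 1.75, the median was 3.59 and the highest had 6.95 CPM. All CHEMO STD samples lay above the medians of both other groups, but each pair of groups overlapped. The 2 highest values were those of CHEMO STD replicate 7 and of the sample summed from replicates 1 and 2, which had 10.0 and 8.35 CPM when taken separately.

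The mean Cma1 level was 3.89 ± 1.64 CPM (SD, n = 5) in TUMOUR STD, 6.71 ± 2.50 CPM (n = 6) in CHEMO STD and 3.63 ± 1.65 CPM (n = 8) in CHEMO FO. The question of the first comparison was the effect of chemotherapy on muscle under the standard diet. With chemotherapy Cma1 was 1.77-fold higher, which on the log2 scale is 0.82 with a standard error of 0.33 (edgeR quasi-likelihood test, unadjusted p = 0.0195, Benjamini-Hochberg adjusted p = 0.719). This passed the thresholds of the study, an unadjusted p of 0.05 with a 1.5-fold change, and failed the adjustment over all genes tested. At those thresholds 0.93% of the 11716 genes were called higher in CHEMO STD and 1.45% lower. Cma1 was thus the 1 call among 5 members tested, against a background of 2.38% of genes called in either direction, and the 3 members fitted without the filter gave no call, against 5.04% of the genes of that fit. The two-sided exact permutation test over samples gave p = 0.0498.

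The call for Cma1 under chemotherapy rested on single libraries, while the log2 fold change stayed between 0.66 and 1.02 when each library was left out. Without CHEMO STD replicates 1 and 2 the log2 fold change was 0.70 (edgeR, unadjusted p = 0.0543), and without CHEMO STD replicate 7 it was 0.67 (unadjusted p = 0.0550). Without TUMOUR STD replicate 10, which was the lowest TUMOUR STD sample in Cma1 and the one high in skin genes, it was 0.66 (unadjusted p = 0.0606). Without TUMOUR STD replicate 11 it was 0.71 (unadjusted p = 0.0529). With TUMOUR STD replicate 10, CHEMO FO replicate 16 and CHEMO STD replicate 7 all left out it was 0.50 (unadjusted p = 0.156), and none of the members was called in this comparison. Without CHEMO STD replicates 1, 2 and 7 and TUMOUR STD replicate 10, the libraries high in nerve sheath genes, it was 0.26 (unadjusted p = 0.459). Whether the skin, B cell or nerve genes had a part in the result was not tested.

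The question of the second comparison was what fish oil changed during chemotherapy. Cma1 was 1.88-fold lower in CHEMO FO than in CHEMO STD, a log2 fold change of -0.91 with a standard error of 0.30 (edgeR, unadjusted p = 0.00538, adjusted p = 0.974). It ranked 42 of 11716 genes by unadjusted p. At the same thresholds 1.05% of genes were called lower and 0.615% higher, 1.66% in all, and Cma1 was the 1 call among 5 members tested, all 5 of which had a negative fold change. The 3 members fitted without the filter gave no call, against 3.76% of the genes of that fit. The two-sided exact permutation test gave p = 0.0170. The call held in each fit that left out a library, with log2 fold changes between -1.09 and -0.76, and without the 3 libraries high in skin or B cell genes (log2 fold change of -0.76, unadjusted p = 0.0213). It was lost at a 2-fold threshold. It was also lost without CHEMO STD replicates 1, 2 and 7 and TUMOUR STD replicate 10, with a log2 fold change of -0.52 and a standard error of 0.31 (edgeR, unadjusted p = 0.109), a choice of libraries made after their nerve sheath genes had been seen. Without CHEMO FO replicate 18 the log2 fold change was -0.89.

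CHEMO STD samples enter both of these comparisons, so the higher level against TUMOUR STD and the lower level in CHEMO FO are not independent of each other. Between CHEMO FO and TUMOUR STD the log2 fold change of Cma1 was -0.09, with a 95% interval from -0.75 to 0.58 (edgeR, unadjusted p = 0.789). In order of mean level, CHEMO STD came first, with TUMOUR STD and CHEMO FO not separated beyond their spread.

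**Figure D2:**
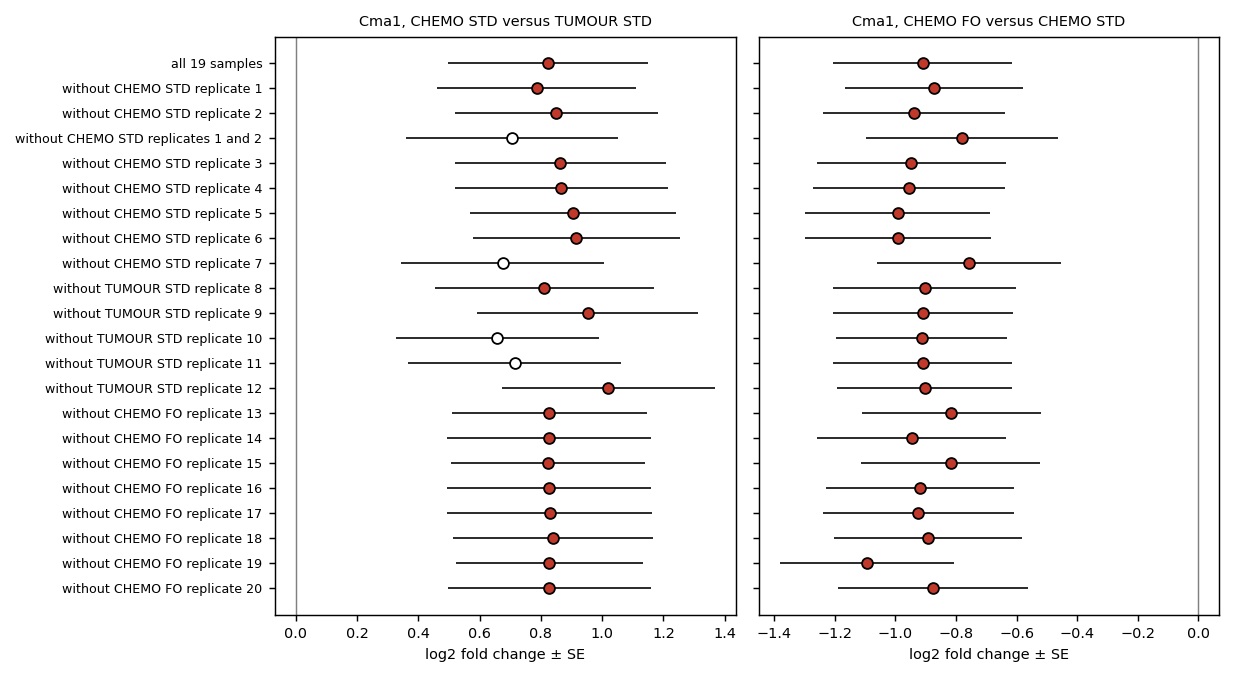
Log2 fold change of Cma1 (horizontal axis, ± SE) with all 19 samples and with each library left out (rows), for CHEMO STD versus TUMOUR STD on the left and CHEMO FO versus CHEMO STD on the right. Filled points pass an unadjusted p of 0.05 with a 1.5-fold change. On the left the call is lost in 4 of the 21 fits, and on the right it is kept in each.

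Cpa3, which encodes the carboxypeptidase that mast cells store with chymase, was also highest on average in CHEMO STD but was not called. In TUMOUR STD it measured 2.74, 5.24, 5.86, 6.02 and 9.71 CPM, in CHEMO STD between 6.41 and 12.7 CPM with a median of 8.59, and in CHEMO FO between 1.46 and 9.58 CPM with a median of 7.13. The TUMOUR STD range contained 5 of the 6 CHEMO STD samples. The group means were 5.91 ± 2.50, 8.84 ± 2.25 and 6.43 ± 2.61 CPM. The log2 fold change of Cpa3 was 0.60 ± 0.32 (SE) for CHEMO STD versus TUMOUR STD (edgeR, unadjusted p = 0.0711), and -0.45 ± 0.28 for CHEMO FO versus CHEMO STD (unadjusted p = 0.121). The exact permutation test of the first difference gave p = 0.0498, against the edgeR test. Cpa3 was called in that comparison when only the 2 groups entered the fit (unadjusted p = 0.0384), without TUMOUR STD replicate 8 (unadjusted p = 0.0166) and without CHEMO FO replicate 13 (unadjusted p = 0.0320).

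The tryptase genes had fewer reads. Tpsb2 measured 2.58, 3.39, 3.47, 4.57 and 5.13 CPM in TUMOUR STD. In CHEMO STD it lay between 2.27 and 7.46 CPM, with a median of 4.90, and in CHEMO FO between 1.17 and 5.62 CPM, with a median of 3.19. Its lowest CHEMO STD sample lay below all TUMOUR STD samples, and its highest above all samples of both other groups. For CHEMO FO versus CHEMO STD the log2 fold change of Tpsb2 was -0.57 ± 0.29 (SE) (edgeR, unadjusted p = 0.0648, adjusted p = 0.974), and so was not called. It was called without CHEMO FO replicate 17 or 18, without CHEMO STD replicate 5 or 6, and with CHEMO STD replicates 1 and 2 kept as 2 samples (log2 fold change of -0.62, edgeR, unadjusted p = 0.0373).

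Tpsab1 measured 0.969, 1.21, 1.42, 1.75 and 1.89 CPM in TUMOUR STD, from 6 to 19 reads. In CHEMO STD it lay between 0.619 and 4.71 CPM with a median of 2.27, and in CHEMO FO between 0.584 and 3.35 CPM with a median of 2.44. Both treated groups spread more widely than TUMOUR STD and contained its whole range. The log2 fold change of Tpsab1 was 0.84 for CHEMO STD versus TUMOUR STD, with a standard error of 0.43 (edgeR, unadjusted p = 0.0661). It was called when CHEMO STD replicates 1 and 2 were kept as 2 samples (unadjusted p = 0.0328) and when CHEMO STD replicate 3, 4 or 6 was left out.

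Together the 4 protease genes summed to 15.1 ± 4.22 CPM in TUMOUR STD, 23.0 ± 6.28 CPM in CHEMO STD and 15.5 ± 5.90 CPM in CHEMO FO (SD). Chymase took 25.6% ± 6.58 of this sum in TUMOUR STD, 28.9% ± 4.90 in CHEMO STD and 24.3% ± 6.81 in CHEMO FO. Its share did not differ detectably in any of the 3 comparisons (two-sided exact permutation tests, p = 0.374, 0.183 and 0.730). The share was computed after the levels had been seen. The call for Cma1 was therefore not shown to differ from the values of the other proteases.

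**Figure D3:**
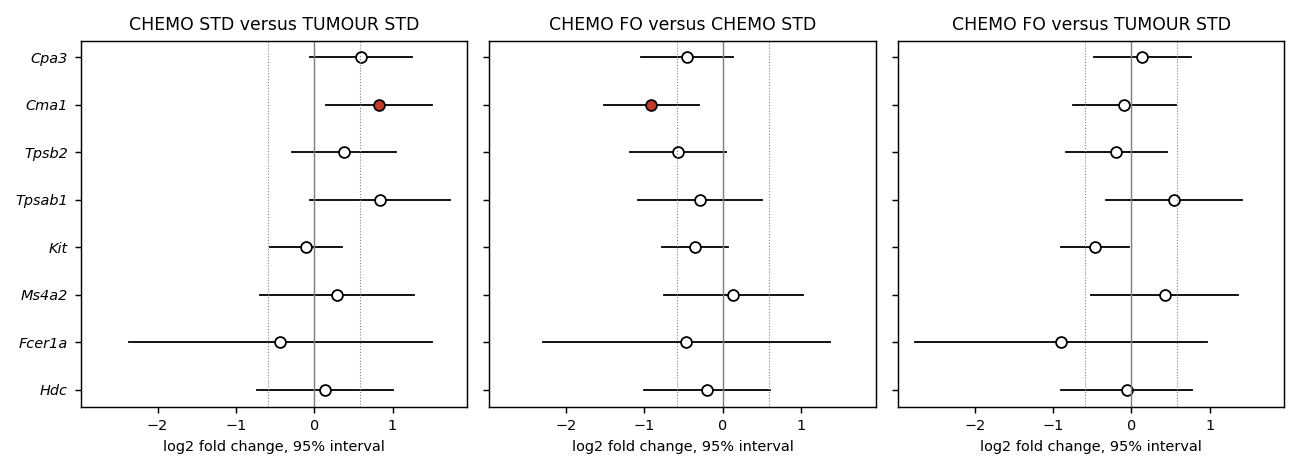
Log2 fold changes of the 8 mast cell genes (points) with 95% intervals (lines) in the 3 comparisons. Filled points pass an unadjusted p of 0.05 with a 1.5-fold change, and dotted lines mark 1.5-fold. Cma1 is the one filled point in each of the first 2 panels, and the third panel has none.

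Kit, the receptor, was highest on average in TUMOUR STD, and the difference between Kit and the proteases was not tested. It measured 6.24, 8.56, 9.83, 12.9 and 14.2 CPM in TUMOUR STD, between 7.43 and 13.7 CPM in CHEMO STD with a median of 8.79, and between 4.91 and 10.8 CPM in CHEMO FO with a median of 7.30. The means were 10.3 ± 3.22, 9.54 ± 2.41 and 7.59 ± 1.83 CPM, with TUMOUR STD and CHEMO STD not separated beyond their spread. For CHEMO FO versus CHEMO STD the log2 fold change of Kit was -0.36 ± 0.20 (SE) (edgeR, unadjusted p = 0.0938), and so Kit was lower on average in CHEMO FO, as the proteases were, without a call. For CHEMO FO versus TUMOUR STD the log2 fold change of Kit was -0.47 ± 0.21 (SE) (edgeR, unadjusted p = 0.0374, adjusted p = 0.539), under 1.5-fold and so not called. In this comparison none of the members was called by edgeR or by DESeq2, against 3.6% of filtered genes by edgeR (422 genes, and 399 by DESeq2) and 5.77% without the filter. Kit was highest within its group in both libraries with many skin transcripts, at 14.2 CPM in TUMOUR STD replicate 10 and 10.8 CPM in CHEMO FO replicate 16. With both left out, the log2 fold change of Kit was 0.039 for CHEMO STD versus TUMOUR STD, where it had been -0.11, and -0.39 for CHEMO FO versus TUMOUR STD (unadjusted p = 0.0889). The 5 melanocyte genes found summed to at most 2.66 CPM in TUMOUR STD, 2.62 CPM in CHEMO STD and 1.46 CPM in CHEMO FO, with the defining genes Tyr and Tyrp1 at 0 in all samples.

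The FcεRI chains and Hdc were near the limit of detection and failed the low-count filter, so their fits used 19364 rows with no filter. Ms4a2, the β chain, had between 2 and 24 reads per sample and means of 0.947 ± 0.444 CPM in TUMOUR STD, 1.11 ± 0.429 CPM in CHEMO STD and 1.25 ± 0.632 CPM in CHEMO FO. Its log2 fold change was 0.29 for CHEMO STD versus TUMOUR STD, with a 95% interval from -0.69 to 1.28, and 0.13 for CHEMO FO versus CHEMO STD, with an interval from -0.75 to 1.02. A change of the size seen for Cma1 under chemotherapy, 0.82, lies inside the first interval, while its change with fish oil, -0.91, lies outside the second. The 95% interval of that Cma1 change, from -1.52 to -0.30, overlaps the second, and the difference between the 2 genes was not tested.

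Fcer1a, the IgE-binding α chain, had 0 reads in 1 of 5 TUMOUR STD, 2 of 6 CHEMO STD and 5 of 8 CHEMO FO samples, and at most 8 reads in any sample. A count of 0 allows up to 3 reads, which is 0.151 to 1.05 CPM depending on the library, for counting error only. The highest Fcer1a value, 0.635 CPM, lies within that range. Its log2 fold change for CHEMO FO versus TUMOUR STD, -0.90, had a 95% interval from -2.76 to 0.96.

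Hdc had 3 to 30 reads per sample and means of 1.56 ± 0.981, 1.69 ± 0.745 and 1.49 ± 0.528 CPM in the same order of groups. Its log2 fold change was 0.14 for CHEMO STD versus TUMOUR STD, with a 95% interval from -0.73 to 1.01, and -0.20 for CHEMO FO versus CHEMO STD, with a standard error of 0.39. The highest Hdc values came from CHEMO STD replicate 7, at 3.14 CPM, and TUMOUR STD replicate 12, at 3.01 CPM.

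Over the 5 members tested, the median log2 fold change was 0.60 for CHEMO STD versus TUMOUR STD, where 4 were positive, beside -0.0016 for all genes. It was -0.45 for CHEMO FO versus CHEMO STD, beside -0.0060 for all genes, and -0.09 for CHEMO FO versus TUMOUR STD, beside 0.0022. The 8 members summed to 28.3 ± 5.48, 35.6 ± 9.62 and 26.0 ± 6.68 CPM in TUMOUR STD, CHEMO STD and CHEMO FO. No gene in the whole table passed a Benjamini-Hochberg adjusted p of 0.05 by edgeR in any of the 3 comparisons (0 of 11716 in each, with 762, 527 and 1059 genes at an unadjusted p under 0.05), and DESeq2 called 0, 0 and 11.

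Of the 6 pairs of proteases, Cma1 with Tpsb2 was the one that passed both by Pearson and by Spearman and that held without the samples farthest from the median. With each gene centred on its group mean, Cma1 and Tpsb2 had a Pearson r of 0.79 over 19 samples (100000 permutations within groups, p = 0.00012, adjusted over 15 pairs p = 0.0018) and a Spearman rho of 0.81 (p = 9e-05, adjusted p = 0.00135). Without the 2 samples farthest from the median the r was 0.80. Within groups it was 0.86 in TUMOUR STD, 0.89 in CHEMO STD and 0.75 in CHEMO FO, the TUMOUR STD value over 5 samples. Of this pair the Cma1 window printed above holds a GATA match and the Tpsb2 window holds none.

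The pairs Cpa3 with Tpsb2, Cpa3 with Tpsab1, and Tpsb2 with Tpsab1 had r of 0.62, 0.58 and 0.66 (permutation, adjusted p = 0.0305 for each). Their r fell to 0.32, 0.35 and 0.35 without the 2 farthest samples, so these relations rest on those samples. Spearman rho for the 3 pairs was 0.49, 0.41 and 0.52 (adjusted p = 0.110, 0.179 and 0.110). Cpa3 with Cma1 had an r of 0.54 (permutation, adjusted p = 0.0707), and 0.06 within CHEMO STD. Cma1 with Tpsab1 had an r of 0.53 (permutation, adjusted p = 0.0641).

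Kit showed no such relation with the proteases over all samples, with r between -0.12 and 0.29 (adjusted p from 0.287 to 0.796). The groups differed in this respect as values. Kit and Cma1 had an r of 0.91 in the 6 CHEMO STD samples, -0.01 in the 5 TUMOUR STD samples and -0.32 in the 8 CHEMO FO samples, and the difference between groups was not tested. A high r within CHEMO STD was not particular to this pair. In that group r was 0.80 for Kit with Tpsb2 and 0.82 for Kit with Tpsab1, but 0.37 for Kit with Cpa3. Plcg1, described below, had 0.97 with Kit and 0.90 with Cma1 there, while Gata2 had 0.14 and 0.28. Within CHEMO STD both Kit and Cma1 were highest in replicate 7 and next in the sample summed from replicates 1 and 2. These libraries were high in nerve sheath genes. Kit made up 27.3% to 33.6% of the sum of Kit and the 4 proteases in CHEMO STD, 25.7% to 53.1% in TUMOUR STD and 19.3% to 63.0% in CHEMO FO. Kit and Hdc had an r of 0.59 (permutation, adjusted p = 0.0628).

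**Figure D4:**
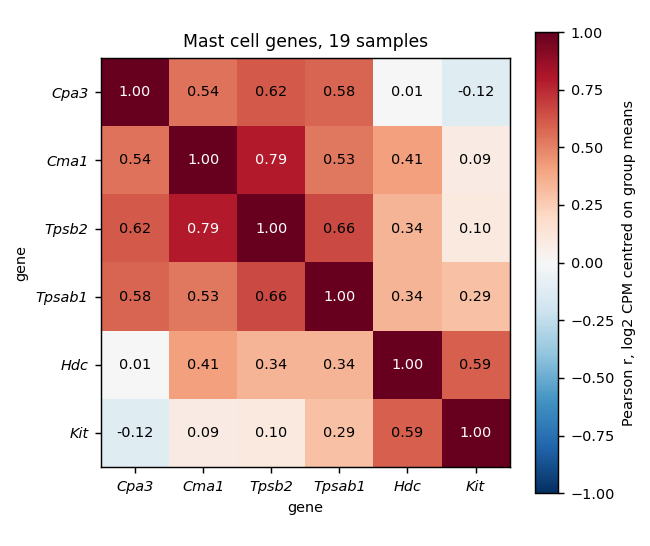
Pearson r between 6 mast cell genes with a mean of at least 10 reads (both axes), over 19 samples, from log2 CPM centred on group means. Cma1 and Tpsb2 have the highest value, 0.79, and Kit has values between -0.12 and 0.29 with the 4 proteases.

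The ligand of KIT, stem cell factor, is encoded by Kitlg. Kitlg was not called in any comparison, with log2 fold changes of 0.16 ± 0.20 (SE) for CHEMO STD versus TUMOUR STD and -0.28 ± 0.18 for CHEMO FO versus CHEMO STD. Across rats it ran opposite to its receptor. Kit and Kitlg had a Pearson r of -0.84 over 19 samples centred on group means (100000 permutations within groups, p = 5e-05, adjusted p = 0.0031 over 62 relations of Kit and Cma1 with 31 listed genes) and a Spearman rho of -0.86 (p = 4e-05, adjusted p = 0.00248). The r was -0.96 in TUMOUR STD, -0.83 in CHEMO STD and -0.70 in CHEMO FO, and -0.81 without the 2 samples farthest from the median of Kit. In TUMOUR STD replicate 10, where Kit was 14.2 CPM, Kitlg was 10.8 CPM, and in TUMOUR STD replicate 8, where Kit was 6.24 CPM, Kitlg was 22.7 CPM. Among 11711 genes outside the members, 4 had a more negative r with Kit. Kitlg showed no such relation with Cma1, with an r of -0.07. These 62 relations were computed after the levels had been seen. They were not recomputed without the libraries high in skin, B cell or nerve sheath genes. Kit was highest within its group in TUMOUR STD replicate 10, CHEMO STD replicate 7 and CHEMO FO replicate 16, which are among those libraries.

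Of the same 62, Kit also varied with Syk (r of 0.71, adjusted p = 0.00517), a kinase downstream of FcεRI, with the phosphatase genes Ptpn6 (r of 0.74, adjusted p = 0.0208) and Inpp5d (r of 0.67, adjusted p = 0.0373), with Alox5 (r of 0.68, adjusted p = 0.0226), which encodes 5-lipoxygenase of leukotriene synthesis, and with Plcg1 (r of 0.63, adjusted p = 0.0469). All are permutation values over 19 samples, and all 5 genes are used by many other leukocytes. Ranks by r with Kit were 96, 58, 187, 162 and 350 among 11711 genes, so many other genes ran with Kit as closely. Spearman rho was 0.71, 0.72, 0.69, 0.64 and 0.59 in the order named. It passed for Syk, Ptpn6 and Inpp5d (adjusted p = 0.0267 for each) and not for Alox5 (adjusted p = 0.0539) or Plcg1 (adjusted p = 0.0917). Cma1 varied with Mcpt1l1, another mast cell protease gene, with an r of 0.78 (permutation, adjusted p = 0.00517) and a rho of 0.77 (adjusted p = 0.0146), the second highest r of 11711 genes with Cma1.

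**Figure D5:**
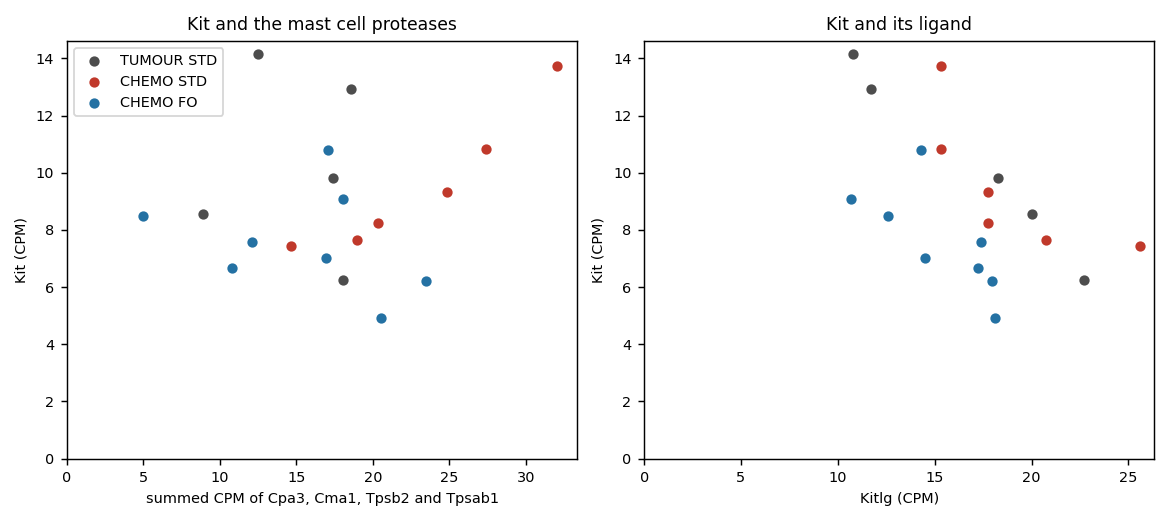
Kit (vertical axes, CPM) against the summed CPM of Cpa3, Cma1, Tpsb2 and Tpsab1 on the left and against Kitlg on the right, 1 point per sample, coloured by group. In the 6 CHEMO STD samples Kit and the summed proteases line up, though Kit with Cpa3 alone had an r of 0.37. In all 3 groups Kit is lower where Kitlg is higher, with a within-group r of -0.84 over 19 samples.

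The 5 genes most like the summed members across rats, by r over 19 samples centred on group means, were Rarres1 (0.83), Cybb (0.82), Slc37a2 (0.81), Art1 (0.80) and Mcpt1l1 (0.79). Cybb encodes the catalytic subunit of the phagocyte NADPH oxidase, and Art1 a muscle ADP-ribosyltransferase. With Cpa3 alone as the reference, none of these 5 was among the 5 most alike, so the list depends on which member carries the sum.

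A wider list of 28 mast cell genes covered other granule proteases, mediator enzymes, receptors and transcription factors. It had 21 members in the file, of which 11 were tested. Chemotherapy on the standard diet gave 0 calls among the 11 by edgeR, beside 2.38% of all genes, with Hpgds, prostaglandin D2 synthase of haematopoietic cells, at a log2 fold change of 0.67 ± 0.48 (SE, edgeR, unadjusted p = 0.173) and Il1rl1, the IL-33 receptor, at 0.41 ± 0.34 (unadjusted p = 0.231). In CHEMO FO versus CHEMO STD 1 of 11 was called, lower, beside 1.05% of all genes called lower. This was Ltc4s, leukotriene C4 synthase, at a log2 fold change of -0.88 ± 0.42 (edgeR, unadjusted p = 0.0472, adjusted p = 0.974), from 4.08 to 2.27 CPM. In CHEMO FO versus TUMOUR STD 0 of 11 were called, beside 3.6%.

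Mcpt1l1, which lay between 7.43 and 18.6 CPM in TUMOUR STD, 5.37 and 24.0 CPM in CHEMO STD and 4.29 and 19.6 CPM in CHEMO FO, was not called although it varied with Cma1. Its log2 fold changes were 0.26 ± 0.34 (SE) for CHEMO STD versus TUMOUR STD and -0.29 ± 0.30 for CHEMO FO versus CHEMO STD. Mcpt1, Mcpt4, Ctsg, Gzmb and Rgs13 were listed at 0 in every library. Gata2, the transcription factor, had a log2 fold change of 0.04 ± 0.29 in the first comparison and -0.06 ± 0.26 in the second.

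A list of 21 genes covered signalling through FcεRI and KIT, the ligand gene Kitlg included, and 17 were tested. By edgeR 0 were called for CHEMO STD versus TUMOUR STD, beside 2.38% of all genes. For CHEMO FO versus CHEMO STD 0 were called, beside 1.66%, and for CHEMO FO versus TUMOUR STD 1 was called, lower. In the last, 3.6% of all genes were called in either direction (422 genes, 128 of them higher). In CHEMO FO versus CHEMO STD 14 of the 17 fold changes were negative, with a median log2 fold change of -0.16 beside -0.0060 for all genes. The one call was Plcg2, a phospholipase C of immune cells, at a log2 fold change of -0.82 ± 0.35 (SE) (edgeR, unadjusted p = 0.0292, adjusted p = 0.524). Of 8 genes for histamine breakdown, transport and receptors, 2 were tested, Maob and Slc22a3, and neither was called in any of the 3 comparisons. Hnmt and Aoc1 of this list were at 0 in all samples. Of 10 genes for growth and alarmin factors and their receptors, 4 were tested and 0 called by edgeR, and Il3, Il4, Il9 and Il13 were listed at 0 throughout. With so few genes tested, 0 calls in these lists cannot be told apart from the shares of all genes called.

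Markers of the related blood granulocytes had low sums. The 4 basophil genes found, from a cell that shares FcεRI and histamine with mast cells, summed to between 0.240 and 3.93 CPM, and the defining gene Prss34 was at 0 in all samples. Some genes of this list are also expressed by other cells, so its sum is not particular to basophils. The highest sum of the list, in CHEMO STD replicate 7, was in the library highest in Cma1 and Hdc. That library also had the highest sums of T and natural killer cell genes (67.7 CPM) and of B cell genes (114 CPM). The 6 eosinophil genes found summed to between 2.91 and 6.55 CPM in TUMOUR STD, 4.30 and 8.67 CPM in CHEMO STD, and 0.181 and 8.43 CPM in CHEMO FO, with the defining genes Epx and Prg3 at 0 in all samples. Siglec5 was the one of them tested and was not called in any comparison. The 10 neutrophil genes had median sums of 1.07, 1.38 and 0.996 CPM and reached 7.07 CPM in CHEMO STD replicate 7, with Elane and Camp at 0 in all samples. The 13 macrophage genes summed to between 208 and 380 CPM in TUMOUR STD and between 249 and 498 CPM in CHEMO STD. In CHEMO FO they summed to between 226 and 856 CPM. None of the 13 was called in the first or second comparison, beside 2.38% and 1.66% of all genes. In the first, 9 of 13 were positive, with a median log2 fold change of 0.38. Beside 3.6% of all genes called in either direction (422 of 11716, 128 of them higher), CHEMO FO versus TUMOUR STD gave 2 calls among the 13, both higher. These were Cd163, a scavenger receptor, at 1.22 ± 0.49 (SE, edgeR, unadjusted p = 0.0203) and Lyve1, a hyaluronan receptor, at 0.85 ± 0.38 (SE, edgeR, unadjusted p = 0.0357), as log2 fold changes. The sum of 856 CPM was that of CHEMO FO replicate 18, and neither call was refitted without that library. Lyve1 lay between 11.3 and 16.5 CPM in TUMOUR STD and between 11.4 and 80.0 CPM in CHEMO FO.

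Some nerve sheath genes were lower in CHEMO FO alongside Cma1. Mbp, which encodes myelin basic protein, had a log2 fold change of -1.12 ± 0.40 (SE) for CHEMO FO versus CHEMO STD (edgeR, unadjusted p = 0.0103, adjusted p = 0.974), and Prx, which encodes periaxin of Schwann cells, had one of -0.82 ± 0.39 (edgeR, unadjusted p = 0.0460, adjusted p = 0.974). Mbp measured 62.7 CPM in the sample summed from CHEMO STD replicates 1 and 2, 38.9 CPM in CHEMO STD replicate 7, and 7.02 to 19.5 CPM in the other 4 CHEMO STD samples. In CHEMO FO it lay between 9.16 and 15.2 CPM, and in TUMOUR STD it was 51.0 CPM in replicate 10 and 11.2 to 13.9 CPM in the others. The 2 CHEMO STD samples highest in Mbp were thus also the 2 highest in Cma1, while TUMOUR STD replicate 10 was the lowest TUMOUR STD sample in Cma1. Prx measured 32.6 and 23.4 CPM in those 2 CHEMO STD samples and 40.6 CPM in TUMOUR STD replicate 10, against 7.76 to 11.0 CPM in the other CHEMO STD samples and 4.18 to 14.6 CPM in CHEMO FO. Without these libraries Cma1 was called in neither comparison, as given above. Pooled over the 3 groups and centred on group means, Mbp and Cma1 had an r of 0.14, and Prx and Cma1 an r of 0.27, over 19 samples. Both values include TUMOUR STD replicate 10, high in Mbp and Prx and low in Cma1. The r within CHEMO STD alone was not computed, so these values do not describe that group. The part of nerve tissue in the chymase difference was not tested.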

How the data were processed

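Total RNA from gastrocnemius was depleted of ribosomal RNA and sequenced as stranded paired-end libraries. Per the labels and the study's methods, the authors called bases with CASAVA 1.9, trimmed with Trim Galore 0.4.1, checked reads with FastQC 0.11.4, aligned them with TopHat2 2.0.10 and Bowtie2 to the rat genome Rnor 6, and quantified genes with Partek Flow. The deposited values are raw counts per gene with no normalization, in 20 libraries. No source used here states the strand setting or how shared reads were treated. Some listed genes were at 0 in every library, and whether they were unexpressed or not counted was not tested. Such a 0 does not by itself show that a cell type was absent. Rows without a symbol (388 rows, 0.102% to 0.272% of counts) were left out.

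CHEMO STD replicates 1 and 2 share a library name stem and were counted as 1 sample by a rule set beforehand. Their counts were summed, leaving 19 samples. They also differed by less than other pairs did. Counts were fitted in R 4.3.3 with edgeR 4.0.16 (glmQLFit and glmQLFTest, TMM factors, filterByExpr with a minimum count of 10, all 3 groups in 1 fit). Calls needed an unadjusted p under 0.05 and at least a 1.5-fold change, the thresholds of the study, and Benjamini-Hochberg adjusted values over all genes tested stand beside it. Members under the filter took their values from the same fit without it. Single members were also compared by two-sided exact permutation tests of log2 CPM (prior count of 2), 24 tests in all, with no adjustment over them. Correlations used log2 CPM centred on group means and 100000 permutations within groups. The scripts were tested on simulated data. DESeq2 1.42.0, other normalizations, other filters and fits without each library were tried as alternatives.

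The mast cell genes and the lists of other genes were chosen with earlier results of these data known. The text names all 8 members, up to 3 genes of another list by the smallest unadjusted p, the 5 genes most like the summed members, and markers that move with a result. Genes paired with Kit or Cma1, and Mcpt1l1, Gata2, Kitlg and genes at 0, were named after their values were seen. The labels give each library its own number and do not otherwise say that the samples of a group come from separate rats. The summed CHEMO STD libraries have separate numbers but share a name stem, so a separate number does not by itself show a separate rat. The letters of that stem differ from those in the names of all other libraries, and the labels do not say why. The p-values measure the spread between the samples as counted here. Some genes of the Schwann cell and nerve list are not reported here.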

Additional observations from a re-analysis of the deposited data

Results flagged for a closer look

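Among 24 combinations of member and group, 2 held a sample set apart from the others of its group by Dixon's criterion, where chance flags about 1 in 20. Both were for Hdc, which had few reads. In CHEMO STD the highest sample, replicate 7, had 3.14 CPM and the next 1.68 CPM, and in CHEMO FO the highest, replicate 19, had 2.64 CPM and the next 1.74 CPM. CHEMO STD replicate 7 was also the library with 114 CPM of B cell genes, and its 16 Hdc reads and the 11 of CHEMO FO replicate 19 limit the precision of both values.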

How the results depend on the processing

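Low depth limited Ms4a2, Fcer1a and Hdc, which had means of 7.89, 1.79 and 10.4 reads per sample and wide intervals. In the first comparison (chemotherapy on the standard diet against none), the second (fish oil against the standard diet) and the third (chemotherapy with fish oil against neither), 279, 195 and 422 genes were called. Without the low-count filter 976, 729 and 1117 were called, without a fold threshold 762, 527 and 1059, and at 2-fold 64, 58 and 112. Leaving out each library gave 161 to 529 in the first, 153 to 238 in the second and 273 to 584 in the third. Without both CHEMO STD replicates 1 and 2 the first had 603 and the second 266. The members called numbered 1, 1 and 0, and leaving out each library gave 0 to 2, 1 to 2 and 0. They numbered 0 and 0 in the first 2 comparisons at 2-fold, 1 in the third (Kit) with no fold threshold, 2 in each of the first 2 with CHEMO STD replicates 1 and 2 kept as 2 samples, and 2 in the first with only the groups compared in the fit.

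Alternatives chosen after seeing the data left out TUMOUR STD replicate 10 and CHEMO FO replicate 16, high in skin genes, or also CHEMO STD replicate 7, high in B cell genes. In the first comparison 170 and 136 genes and 0 members were then called. Signs turned for members that were not called. Without the skin libraries the log2 fold change was 0.039 for Kit in the first comparison and 0.0062 for Hdc in the third. Without all 3 it was -0.049 for Ms4a2 and -0.020 for Hdc in the first, 0.032 for Hdc in the second and 0.013 for Hdc in the third. Without CHEMO STD replicates 1, 2 and 7 and TUMOUR STD replicate 10, high in nerve sheath genes and also chosen after seeing the data, 321, 326 and 285 genes and 0 members in each comparison were called. The log2 fold change was then -0.016 for Tpsb2, -0.10 for Ms4a2 and -0.051 for Hdc in the first comparison, 0.42 for Tpsab1 and 0.076 for Hdc in the second, and 0.025 for Hdc in the third. Leaving out each library, log2 fold changes spanned -0.27 to 0.12 for Cma1 and -0.031 to 0.39 for Cpa3 in the third comparison, -0.23 to 0.039 for Kit in the first, and -0.11 to 0.49, -0.36 to 0.051 and -0.24 to 0.30 for Hdc in the 3 comparisons. The causes were not tested. Over 31 alternative fits, Cma1 in the second comparison kept its direction in all 31 and its call in 30, lost without the libraries high in nerve sheath genes, with log2 fold changes of -1.09 to -0.52 (edgeR or DESeq2, adjusted p from 0.611 to 1.00). In the first it kept its direction in all 31 and its call in 24, at 0.26 to 1.02 (adjusted p from 0.436 to 0.999). No paired analysis was possible because the groups share no replicate numbers.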
